A study of Mus musculus with 2 samples.

Results

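In muscle nuclei, 890 regions of protein-coding exons lay away from any transcription start and were open to DNase I in both libraries. They are 1.79% of the 49760 replicate 1 peaks that overlapped a replicate 2 peak by at least 1 bp. Each has its midpoint in coding sequence (CDS) of a protein-coding gene and no base within 1 kb of the start of any annotated transcript. The choice rests on position and on presence in both libraries, with no cut on signal. Presence in both still depended on signal. Of the coding exon peaks of replicate 1, 23.0% in the lowest quartile of signal overlapped a replicate 2 peak, and 96.6% in the highest. The 890 regions fall in 761 genes, or 3.47% of the 21911 protein-coding gene symbols. Of these genes 672 hold 1 region, 68 hold 2 and 21 hold 3 or more. DNase-seq had been run on the gastrocnemius, a muscle of the calf, from B6CASTF1/J males at an age of 25 days, and there is no other group. They are labelled biological replicates 1 and 2, carry the same donor identifier and belong to biosamples described as different males, and nothing else in the labels shows that 2 animals were used. Instrument models are named for replicate 1 only. With 1 library per replicate, a difference between the animals and a difference in sequencing cannot be told apart.

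DNase I cuts DNA where nucleosomes are displaced, and inside an accessible region a bound protein shields its own site, which leaves a short protected stretch called a footprint. Coding exons are usually wrapped in nucleosomes, but some carry the binding sites of transcription factors or serve as enhancers of their own or a neighbouring gene, so that the same bases are read both as codons and as regulatory sequence. Whole muscle holds myofibres together with satellite cells, fibroblasts, vessel, nerve and blood cells, and a bulk library adds up the chromatin of all of them, so a region open in few cells and one weakly open in many cannot be told apart.

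Replicate 1 had 97499 peaks and replicate 2 had 61664. Signals are the authors' deposited values. Within a library they all step by 0.00591 (replicate 1) or 0.00854 (replicate 2), to within 0.1 of a whole step, as counts of tags scaled to 1 M tags would for totals of 169 M and 117 M, although no source states the unit. On that reading the 890 regions held a median of 137 tags in replicate 1 and 113 in replicate 2, with lowest counts of 32 and 26. All 10 muscle marker genes had a peak at a start in both libraries, none of the 4 liver or 3 leukocyte markers did, and all 3 neuron markers and 1 of the 3 germline markers also did. With 2 libraries of 1 group an exact sign-flip test cannot go below p = 0.5, so differences are given as values per library, with Wilson 95% intervals on shares that cover counting error only. Signals and footprints of neighbouring regions of 1 exon share tags, and 12 regions share bases with the region before them.

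The sequences below show coding bases that double as a factor's consensus match, for regions where the whole match lay in a footprint of both libraries. They are on mm10, read along the coding strand, with the match in capitals. Angptl6 (an angiopoietin-like secreted protein) is shown over chr9:20878181-20878480, minus strand, the central 300 bases of its region, with the E-box CAGCTG, the site type that MyoD and myogenin bind, over codons 101 to 102. Sptbn4 (beta-IV spectrin of the membrane skeleton of axons) is shown over chr7:27361461-27361680, minus strand, with an NRF1 match over codons 2423 to 2426 of coding exon 32 of 35. Synpo2l (a Z-disc protein of striated muscle) is shown over chr14:20661041-20661280, minus strand, with a CTCF core match over codons 689 to 692 of the last of 4 coding exons. Rimbp3 (a protein of developing sperm) is shown over chr16:17210081-17210300, plus strand, with the E-box CACGTG over codons 497 to 499 of its single coding exon. Pomc (the precursor of ACTH and melanocortins) is shown over chr12:3959901-3960100, plus strand, with the ETS match CCGGAAGT over codons 74 to 77.
Angptl6: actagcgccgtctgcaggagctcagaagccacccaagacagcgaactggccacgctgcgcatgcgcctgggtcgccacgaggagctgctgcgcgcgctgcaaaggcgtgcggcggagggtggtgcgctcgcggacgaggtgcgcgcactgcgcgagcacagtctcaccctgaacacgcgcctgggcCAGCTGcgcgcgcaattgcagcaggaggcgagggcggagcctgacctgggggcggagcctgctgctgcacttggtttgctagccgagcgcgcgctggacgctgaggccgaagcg
Sptbn4: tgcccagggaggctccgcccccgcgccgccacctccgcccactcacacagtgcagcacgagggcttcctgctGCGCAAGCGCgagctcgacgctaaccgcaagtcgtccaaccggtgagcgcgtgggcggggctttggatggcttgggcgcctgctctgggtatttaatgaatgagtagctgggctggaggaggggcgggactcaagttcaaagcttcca
Synpo2l: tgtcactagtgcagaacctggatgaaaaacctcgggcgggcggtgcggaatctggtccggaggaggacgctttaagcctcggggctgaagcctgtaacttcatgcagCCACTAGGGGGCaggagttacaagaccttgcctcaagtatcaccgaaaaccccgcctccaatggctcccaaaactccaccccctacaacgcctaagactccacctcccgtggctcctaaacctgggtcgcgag
Rimbp3: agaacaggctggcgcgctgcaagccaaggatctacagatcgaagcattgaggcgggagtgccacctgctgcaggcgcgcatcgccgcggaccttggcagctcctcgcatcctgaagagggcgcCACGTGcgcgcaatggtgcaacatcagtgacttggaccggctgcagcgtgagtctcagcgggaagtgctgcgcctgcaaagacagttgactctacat
Pomc: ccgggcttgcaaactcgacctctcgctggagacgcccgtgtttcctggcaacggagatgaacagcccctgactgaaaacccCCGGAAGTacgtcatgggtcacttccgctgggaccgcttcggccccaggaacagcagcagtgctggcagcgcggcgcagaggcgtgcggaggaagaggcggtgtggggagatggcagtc

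The strongest region of the 890 in replicate 1 lay in the first of 5 coding exons of Angptl6, 1396 bp from the nearest start. Its signal was 13.5 in replicate 1 and 8.71 in replicate 2, and it held 9 and 8 footprints that covered 168 and 142 bp. Sptbn4 came next, with signals of 9.69 and 7.36 in replicates 1 and 2, in a region of which 51.8% is coding and the remainder reaches into the intron after the exon. The Spi1 region, in the last exon of the gene of PU.1, a transcription factor of myeloid and B cells, had 6.53 and 6.96. The next regions by geometric mean lay in Ccdc194 (6.91 and 5.84), Unc13a (5.80 and 6.01), a synaptic vesicle priming factor, and Synpo (5.52 and 5.70), which encodes the actin-associated synaptopodin. Fbxl22, an F-box protein of striated muscle, had 6.24 and 4.55, the zinc finger gene Zfp771 had 5.94 and 4.70, and Gdf15, a stress-responsive cytokine, had 4.09 and 6.14. These regions stand far above the median of all 890, which was 0.810 in replicate 1 and 0.966 in replicate 2, and 25 regions passed a signal of 4 in each library.

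The predicted gene Gm11168 held the strongest region in replicate 2, with 6.15 in replicate 1 and 18.4 in replicate 2. Its region, chr9:3006800-3006920 on the plus strand of mm10, is 100% repeat-masked, and its central 36 bases occur 75 times in the 21 chromosomes. The central 36 bases of the other 9 strongest regions occur 1 time each. The sequence is shown because of these copies, and the part of each copy in the value was not tested. Of all 890 regions, 2 were over 50% masked.
Gm11168: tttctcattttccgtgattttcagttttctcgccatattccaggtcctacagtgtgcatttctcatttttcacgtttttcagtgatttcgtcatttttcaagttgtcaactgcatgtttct

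**Figure D1:**
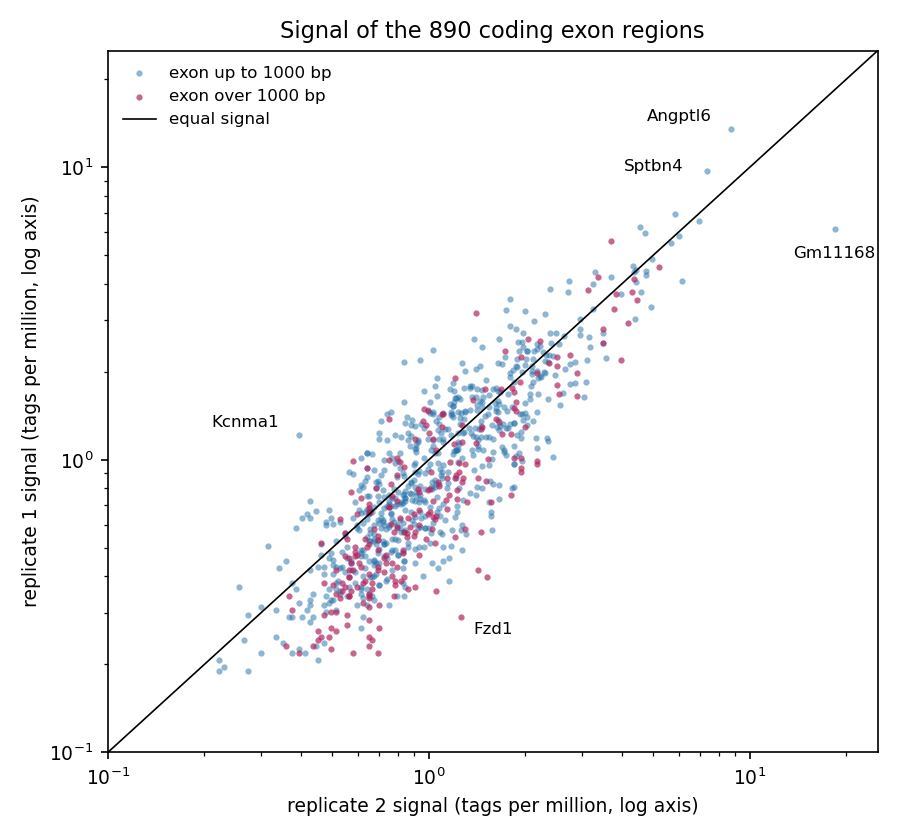
Signal of each of the 890 coding exon regions in replicate 1 (vertical axis) against replicate 2 (horizontal axis), both on log axes; red points are the 233 regions in coding exons over 1000 bp, blue points the others, and the line marks equal signal. Most regions lie between 0.2 and 4 in both libraries, red points lie mostly under the line, and Gm11168 stands apart at 6.15 in replicate 1 and 18.4 in replicate 2.

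Coding exon regions were denser per Mb than intronic and intergenic regions, and last, first and single exons held more per Mb than internal ones. There were 35.5 regions per Mb of CDS over 1 kb from starts, against 12.1 per Mb of intron, 8.12 per Mb of intergenic sequence and 147 per Mb of sequence near starts. Internal coding exons held 396 regions, last coding exons 314, single coding exons 101 and first coding exons 79. Per Mb of eligible CDS this was 22.1 in internal exons, 68.6 in last exons, 79.9 in single exons and 80.2 in first exons. These places also differed in distance from starts. The median distance was 6124 bp for regions in internal exons, 4946 bp in last, 1818 bp in single and 1644 bp in first exons. The part of distance in the density was not tested. The median region lay 4334 bp from the nearest start, from 1029 bp to 163598 bp, in a coding exon of median length 395.5 bp. All bases were coding in 454 regions, and 201 touched a UTR base.

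Length of the exon went with this density. Per Mb of eligible CDS, regions numbered 16.8 in coding exons of up to 150 bp, 30.0 at 151 to 300 bp, 67.8 at 301 to 1000 bp and 55.0 above 1000 bp. To look at this without the choice of regions, every internal coding exon over 1 kb from a start with exon-free flanks was set against the 200 bp on either side, whether or not it held a region. In 54855 exons of up to 150 bp, 0.902% of exon bases and 0.756% of flank bases had a q-value under 0.05 in replicate 1, and 0.618% and 0.496% in replicate 2. In 434 exons over 1000 bp, 1.93% of exon bases and 0.379% of flank bases did so in replicate 1, and 1.23% and 0.314% in replicate 2. The ratio of exon to flank over the 4 length classes was 1.19, 1.64, 3.10 and 5.08 in replicate 1, and 1.25, 1.69, 3.30 and 3.92 in replicate 2. At 301 to 1000 bp, the exon and flank shares were 1.97% and 0.633% in replicate 1, and 1.575% and 0.478% in replicate 2. Both shares were thus lower in the longest class than in this one. By bases in peaks, the ratio was 1.21, 1.76, 3.82 and 4.56 in replicate 1. In replicate 2 it was 1.36, 1.85, 5.19 and 3.73, so it fell in the longest class. Exons exceeded flanks in both libraries in every class. The flank was 200 bp in every class, and the median width of the 890 regions was 211.5 bp. An accessible stretch centred in a short exon therefore reaches into the flanks, while one in a long exon often does not. The part of this in the change of the ratio with length was not tested. Exons and flanks also differed in composition, with 48.3 to 52.1% GC in exons and 42.4 to 43.9% in flanks, and 3.79 to 4.89% masked bases in exons and 16.0 to 18.2% in flanks, and the part of these differences in the ratio was not tested.

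**Figure D2:**
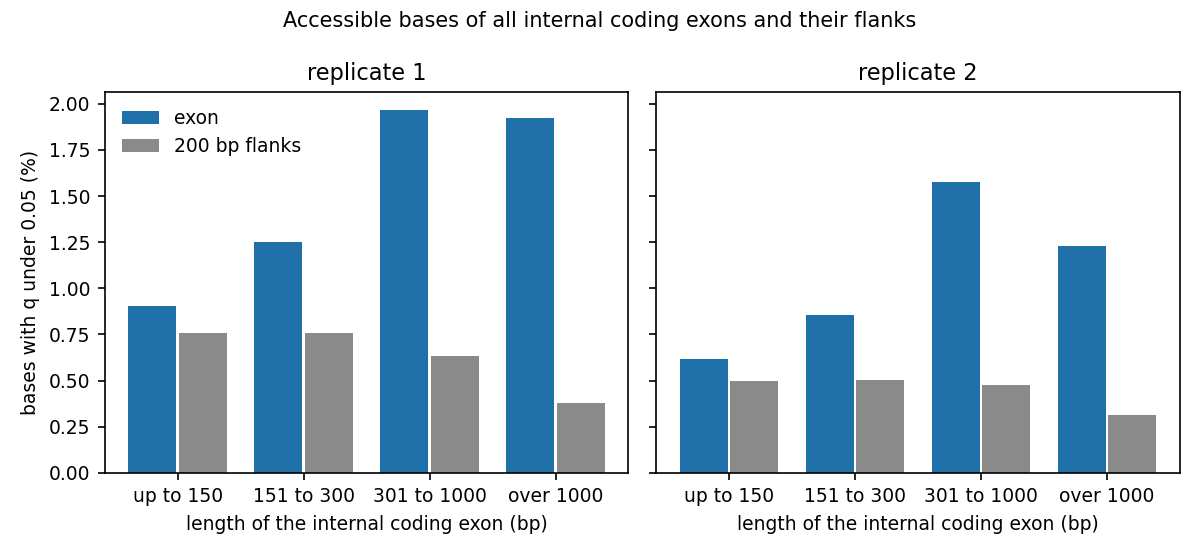
Percent of bases with a deposited q-value under 0.05 in all internal coding exons away from starts (blue) and in the 200 bp on either side of them (grey), by exon length, in replicate 1 (left) and replicate 2 (right). The exon bar exceeds the flank bar in every class, from 0.902% against 0.756% in the shortest class to 1.93% against 0.379% in the longest in replicate 1.

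Some long exons were open along much of their length. The last exon of Plec, which encodes plectin, a linker between intermediate filaments and other parts of the cytoskeleton, held 12 regions in 6213 bp of CDS. Their signals ran from 0.231 to 0.379 in replicate 1 and from 0.376 to 0.666 in replicate 2, so each was weak. Irs1, the insulin receptor substrate, held 7 regions in its single coding exon of 3693 bp, at 0.367 to 0.816 in replicate 1 and 0.897 to 1.08 in replicate 2. Tchh, the hair follicle protein trichohyalin, also held 7, at 0.219 to 0.869 in replicate 1 and 0.436 to 1.28 in replicate 2. Zfp503, a zinc finger repressor, held 4, at 0.911 to 3.27 in replicate 1 and 1.93 to 3.79 in replicate 2. All 30 of these regions were lower in replicate 1. The 4 regions of Syne1, which encodes the nuclear envelope protein nesprin-1, lay in 4 separate exons instead, and 1 of them was lower in replicate 1. In all, 64 merged coding exons held 2 or more regions, and in 54 of them every region was lower in replicate 1. Counted singly, 602 of the 890 regions (67.6%) were lower in replicate 1, as were 189 of the 233 in exons over 1000 bp. As neighbouring replicate 1 regions can share a replicate 2 peak (the 890 regions had 844 partners), these counts are not independent.

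**Figure D3:**
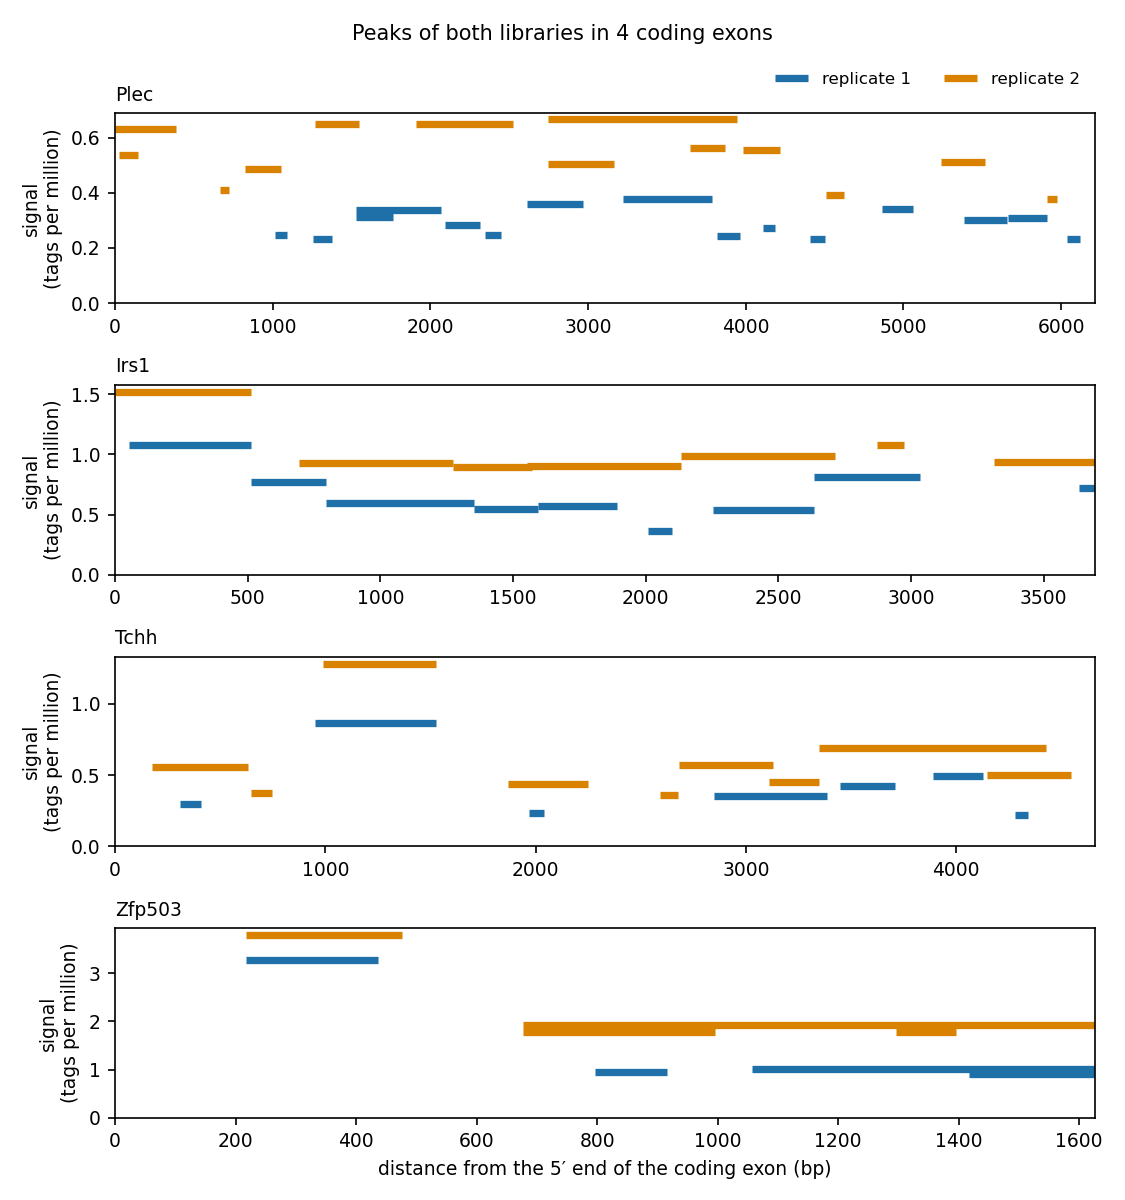
Peaks of replicate 1 (blue) and replicate 2 (orange) along the coding exons of Plec, Irs1, Tchh and Zfp503, placed by distance from the 5′ end of the coding exon and by signal. Bars of replicate 2 lie above those of replicate 1 nearly everywhere, and in Plec no replicate 1 peak exceeds 0.379 while replicate 2 peaks reach 0.666.

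The libraries differed over the regions as a whole. Log2 ratios of replicate 1 over replicate 2 were shifted so that all shared peaks had a median of 0. The 890 regions then had a median of −0.24 and the 12304 intronic regions a median of 0.06. The regions were lower in replicate 1 in 602 of 890 cases, or 67.6%. Among other shared peaks this share was 45.9% in introns, 47.6% in intergenic sequence, 52.3% in other exons and 52.6% near starts. More than 2-fold lower in replicate 1 were 62 regions, or 6.97%, against 2.91% of all shared peaks, and more than 2-fold higher were 6, or 0.674%, against 2.49% of all shared peaks. The median moved with exon length, at −0.07, −0.09, −0.29 and −0.44 in exons of up to 150, 151 to 300, 301 to 1000 and over 1000 bp. Peak widths moved too. Their medians in these classes were 200, 200, 220 and 240 bp in replicate 1. Replicate 2 partners had medians of 180, 200, 240 and 279 bp. The part of width in the ratio was not tested. The median ratio also moved with composition. In the 368 regions with an observed over expected CpG ratio of 0.6 or more the median was −0.45, against −0.10 in the other 522. Among regions of 50 to 60% GC alone, the longest class lay at −0.34 and the shortest at −0.03. With 1 library per replicate, a difference between the animals and one in library preparation cannot be told apart.

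Single regions show the range of this difference. The largest excess in replicate 1 was in coding exon 14 of Kcnma1, the BK potassium channel, with 1.21 in replicate 1 and 0.393 in replicate 2, a centred log2 ratio of 1.65. It held 3 footprints in replicate 1 and 0 in replicate 2. Plin2, a coat protein of lipid droplets, followed with 2.15 and 0.837, and then Fam13b with 2.19 and 0.940. The largest excess in replicate 2 was in Fzd1, a Wnt receptor with a single coding exon, with 0.290 in replicate 1 and 1.26 in replicate 2, a centred log2 ratio of −2.09. Ccdc166 had 0.396 and 1.52, and Fjx1, a homologue of the fly gene four-jointed, had 0.420 and 1.43. A second Fjx1 region had 0.870 in replicate 1 against the same replicate 2 value, a centred log2 ratio of −0.69. The part that the splitting of peaks in this exon had in the low ratio of Fjx1 was not tested. By the merged exon length used for the classes above, the 3 regions high in replicate 1 lay in exons of 156 to 369 bp and the 3 low in it in exons of 1350 to 1926 bp. Each ratio sets 1 library against 1 other, so its error is unknown.

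**Figure D4:**
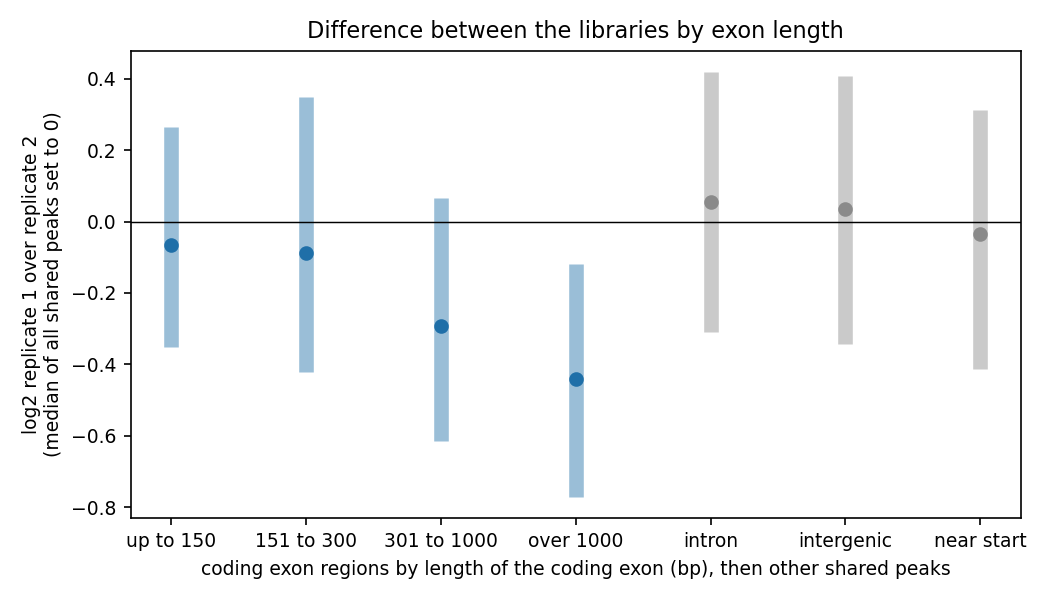
Log2 ratio of replicate 1 over replicate 2 signal, with the median of all shared peaks set to 0, for coding exon regions by length of the coding exon (blue) and for other shared peaks (grey); points are medians and bars run from the lower to the upper quartile. The median lies at −0.07 in exons of up to 150 bp and at −0.44 in exons over 1000 bp, against 0.06 in introns.

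In level, coding exon regions lay under intronic regions in replicate 1 and slightly over them in replicate 2. Median signal was 0.810 in coding exon regions and 1.01 in intronic regions in replicate 1, but 0.966 and 0.931 in replicate 2. The log2 ratio of coding exon over intronic medians was −0.31 and 0.05, or −0.13 ± 0.26 (SD, n = 2). With the intronic regions weighted to the GC content of the coding exon regions, it was −0.51 in replicate 1 and −0.19 in replicate 2, so the sign in replicate 2 turned. Of all coding exon peaks of replicate 1, 47.9% (45.6 to 50.2%) overlapped a replicate 2 peak, against 38.2% (37.7 to 38.7%) of intronic peaks. Of those of replicate 2, 59.6% (57.2 to 62.0%) overlapped a replicate 1 peak, against 77.8% (77.1 to 78.5%) of intronic peaks. The means were 53.8 ± 8.29% for coding exon peaks and 58.0 ± 28.0% for intronic peaks (SD, n = 2 libraries), and the order turned between the libraries. In the lowest quartile of signal of replicate 1, 23.0% of coding exon peaks and 10.6% of intronic peaks were found again, and in the highest 96.6% and 92.0%. In replicate 2 the order was the other way round in the lower quartiles, with 24.2% and 42.2% in the lowest, 71.7% and 87.6% in the next and 91.3% and 97.3% in the one above. In the highest, 131 of 131 coding exon peaks and 1503 of 1507 intronic peaks were found again.

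Footprints were somewhat less frequent in coding exon regions than in intronic ones in both libraries. At least 1 footprint lay in 87.6% (85.3 to 89.6%) of coding exon regions and 93.5% (93.1 to 94.0%) of intronic regions in replicate 1, and in 79.7% (76.9 to 82.2%) and 84.3% (83.6 to 84.9%) in replicate 2. The difference was −5.27 ± 0.899 percentage points (SD, n = 2). It was −2.01 without the regions in exons over 1000 bp. Both libraries had a footprint in 657 regions and neither had one in 58. Within the 890 regions, 13.7% of coding bases and 10.2% of non-coding bases lay in a footprint in replicate 1, and 11.2% and 6.94% in replicate 2. Within 75 bp of the midpoint, where coding bases are concentrated, these shares were 17.2% and 16.4% in replicate 1, and 13.5% and 10.6% in replicate 2. After Angptl6, the regions with the most footprint bases in both libraries were those of Gdf15 (117 bp in replicate 1 and 173 bp in replicate 2) and of Nrg2, a neuregulin growth factor (167 and 116 bp).

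The sequence of the regions was richer in GC and CpG than that of intronic regions. The central 150 bp had a median GC content of 60.7% in coding exon regions, 54.7% in intronic regions and 64.7% near starts. The observed over expected CpG ratio was 0.519, 0.253 and 0.758, in the same order. A ratio of 0.6 or more was found in 41.4% of coding exon regions and 7.76% of intronic regions.

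Both strands of the same 150 bp were searched for exact letters, and a match describes sequence and not binding. The E-box CAGCTG was in 26.0% (23.2 to 28.9%) of coding exon regions, 22.1% (21.4 to 22.8%) of intronic regions and 16.7% of all shared peaks. The CTCF core was in 5.17% (3.90 to 6.83%), 9.75% (9.23 to 10.3%) and 6.50%. With intronic regions weighted to the same GC content, the shares in introns became 23.9% for CAGCTG and 6.65% for the CTCF core, both inside the intervals of the coding exon regions. The letters of AP-1 (TGANTCA) were in 3.93% of coding exon regions, 7.72% of intronic regions and 5.16% of all shared peaks, and those of TEAD (CATTCC) in 5.84%, 10.2% and 7.90%. RUNX (TGTGGT) was in 7.19%, 10.96% and 8.17%, and STAT (TTCNNNGAA) in 1.91%, 3.80% and 3.32%. With the same GC weights the shares in introns were 6.78% for AP-1 and 8.90% for TEAD, still above the intervals of the coding exon regions, but 8.47% for RUNX and 2.96% for STAT, which lie inside them. NRF1, a motif of CpG-rich starts, ran the other way, with 2.70% of coding exon regions, 0.317% of intronic regions and 2.85% of all shared peaks. The GC-box of SP/KLF factors (GGGCGGGG) was in 2.58% (1.73 to 3.85%), 2.56% and 10.7%. With GC weights the introns held 0.790% for NRF1, still lower than the coding exon regions, and 8.29% for SP/KLF, which is higher. The GATA factor letters, AGATAA, were in 1.91%, 3.16% and 2.52%, the E-box CACGTG in 3.15%, 3.28% and 4.27%, and ETS (CCGGAAGT) in 0.674%, 0.293% and 1.91%. With GC weights the introns held 1.89%, 4.42% and 0.345% for these 3, each inside the interval of the coding exon regions. No region held a match of MEF2, SRF, NFI or MEF3 (TCAGGTTTC), and a count of 0 allows a share of up to 0.337% (3 counts of the 890) or 0.430% (the Wilson limit). Intronic regions held 0.561% for MEF2, 0.528% for SRF, 0.130% for NFI and 0.398% for MEF3, and with GC weights 0.442%, 0.378%, 0.124% and 0.316%. The absence of these matches was therefore near the limit of what 890 regions can show. ERR (TCAAGGTCA), YY1 (CAAGATGGC) and CRE (TGACGTCA) were in 1, 2 and 2 of the 890 regions.

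The CTCF core matches lay in footprints more often than the E-box matches did. Of the 46 CTCF core matches in coding exon regions, 45 lay in a footprint of replicate 1 and 39 in one of replicate 2, and 40 lay wholly in CDS. In intronic regions 97.8% and 90.7% of CTCF core matches lay in a footprint. Of the 275 CAGCTG matches, 27.6% lay in a footprint of replicate 1 and 26.5% in one of replicate 2, and in intronic regions 30.8% and 24.0% did. The strongest region with a CTCF core match was that of Synpo2l printed above, with signals of 5.58 and 3.68. It was followed by Pgls (4.05 and 4.43), an enzyme of the pentose phosphate pathway, and Hey1 (3.32 and 4.91), a repressor downstream of Notch. Rimbp3 had 2.93 and 4.19 and Pomc 3.29 and 3.25 in replicates 1 and 2.

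**Figure D5:**
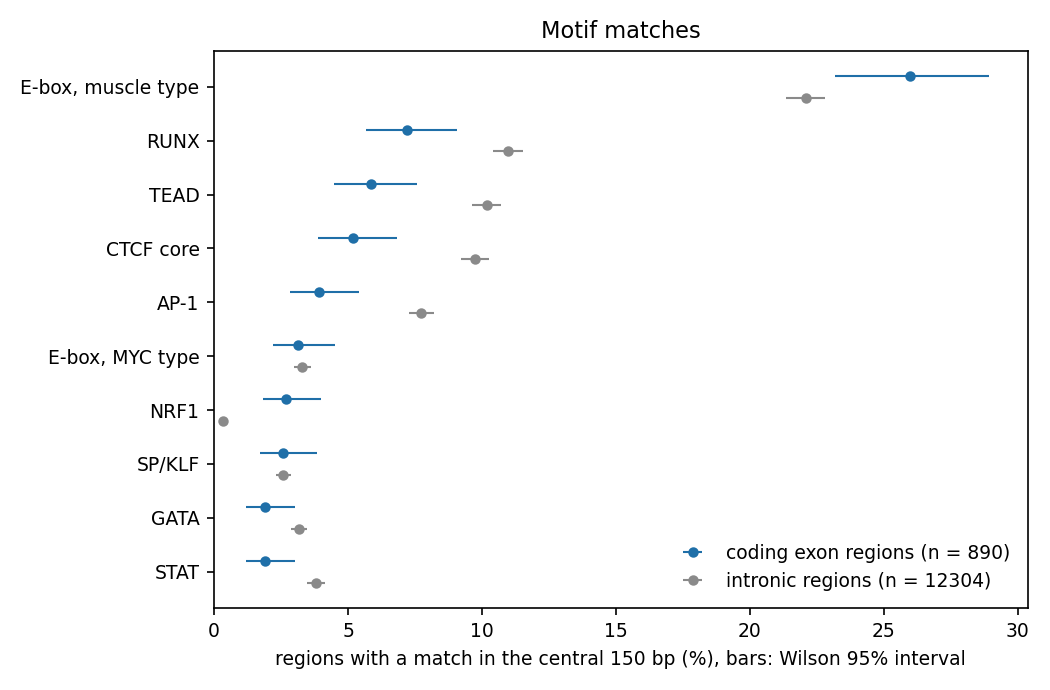
Percent of coding exon regions (blue, n = 890) and intronic regions (grey, n = 12304) with a motif match in the central 150 bp; bars are Wilson 95% intervals, which cover counting error only. E-box, muscle type is CAGCTG, at 26.0% in coding exons and 22.1% in introns, and E-box, MYC type is CACGTG; NRF1 is higher in coding exons and CTCF core, AP-1, TEAD, RUNX and STAT are lower as plotted, but with introns weighted to the same GC content (not plotted) the CTCF core, RUNX and STAT shares of introns lie inside the coding exon intervals.

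Muscle genes were among the 761 genes. Of 65 sarcomere and triad genes 6 held a region, or 9.23%, against 3.47% of all coding genes. Among genes ranked by coding length over 1 kb from starts, the share holding a region ran from 0.164% in the lowest of 4 equal classes to 7.03% in the highest, so a share depends on how much coding sequence a list offers. They include Synpo2l, Bin1, Acta1, Myot and Flnc. Bin1, which shapes T-tubule membranes, had 1.25 and 1.29. Acta1, the skeletal alpha-actin gene, held 2 regions with 1.23 and 1.08 in replicate 1 and 1.23 and 1.22 in replicate 2. Myot, which encodes the Z-disc protein myotilin, had 0.940 and 0.812, and the 3 regions of Flnc, the muscle filamin, ran from 0.290 to 0.420 in replicate 1 and from 0.427 to 0.624 in replicate 2.

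Of 24 genes of myogenic factors 3 held a region, or 12.5%, against 3.47% of all coding genes. Their median coding length over 1 kb from starts was 1170 bp. In the length class with a median of 1063 bp, 4.18% of genes held a region. A count of 3 is too small to be set apart from these shares. Myog, the gene of myogenin, had 1.17 and 1.03 over its second exon, 1142 bp from the nearest start, with 37.3% of the region coding. Vgll2, a TEAD cofactor of muscle, had 0.556 and 1.10, and Myod1 had 0.591 and 0.752 in the last exon. None of the 3 stood near the strongest regions.

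Of 22 membrane and dystrophin complex genes 6 held a region, as did 6 of 22 large genes with many exons, lists that share Plec. Both shares are 27.3%, against 3.47% of all coding genes, but the median coding length over 1 kb from starts was 2942 bp and 11368 bp in these lists, against 2229 bp in the class of longest genes, where 7.03% held a region. Dysf, which repairs the muscle membrane, had 2.71 and 1.97, Col6a3, a collagen VI chain, had 1.85 and 1.84, and Utrn, the dystrophin homologue utrophin, had 1.72 and 1.20. Among large genes Syne1 reached 2.43 and 1.97, 67712 bp from the nearest start. Syne2, which encodes nesprin-2, had 2.59 and 1.38, and Dst, which encodes dystonin, had 1.40 and 2.02. These are the strongest regions of the lists, and after centring all but that of Dst had a log2 ratio above 0. Over all regions the lists went the other way, with a median centred log2 ratio of −0.82 over the 18 regions of the membrane list and −0.62 over the 22 regions of the large genes, 12 of which in each are those of Plec.

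Other families are given by how many of their genes held a region, to be read against 3.47% of all coding genes. Solute carriers had one in 11 of 371 genes (2.96%), led by Slc4a5, a bicarbonate transporter, at 3.54 and 1.79, and including Slc25a4, the muscle ADP/ATP carrier, at 1.44 and 1.26. Zinc finger genes had one in 13 of 454 (2.86%), potassium channels in 6 of 94 (6.38%) and Hox genes in 2 of 39 (5.13%). Collagen chains had one in 4 of 44 (9.09%), ADAMTS genes in 4 of 24 (16.7%) and laminins in 3 of 11 (27.3%), lists whose median coding length over 1 kb from starts, 3671, 2888 and 4719 bp, also exceeds that of the class of longest genes. Clustered protocadherins had 0 of 56 and olfactory receptors 0 of 1134. The median olfactory receptor gene has 0 bp of coding sequence over 1 kb from a start, so that list had little to offer. The shares of solute carriers and zinc finger genes lay near 3.47%. Their median coding lengths over 1 kb from starts were 1177 and 1555 bp. In the length classes with medians of 1063 and 2229 bp, 4.18% and 7.03% of genes held a region, which are higher shares. The counts of Hox genes and clustered protocadherins are too small to be set apart from 3.47%.

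Genes that mark other cell types were also among the 761, in lists too short for their shares to be set against the 3.47% of all coding genes. Of the leukocyte list 1 of 6 did (Spi1), of the smooth muscle and pericyte list 1 of 7 (Notch3), of the endothelial list 1 of 10 (Tek), of the fibro-adipogenic list 1 of 7 (Col1a1), and of the Schwann, hepatocyte and neuron lists 0 of 6, 0 of 4 and 0 of 4. Notch3, a receptor of vascular smooth muscle, held 3 regions, the strongest at 3.75 and 4.57. Col1a1, the main collagen of fibroblasts, held 3 at 0.633 to 1.08 in replicate 1 and 0.948 to 1.48 in replicate 2. Tek, the angiopoietin receptor of endothelium, had 0.402 and 0.624. In which cells these exons were open was not tested.

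A region in a coding exon did not always go with an open start of its gene. Of the 761 genes, 594 (78.1%) had a peak at a start in both libraries, against 63.0% of all coding gene symbols, and 120 had none in either. The list of genes therefore holds both genes with open starts and genes without one.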

How the data were processed

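DNase-seq of gastrocnemius (2 libraries) was described from peak lists, footprint lists and per-position q-values on mm10. The signal of a peak is the deposited value, and per the deposited notes peaks were called on each library separately. For the aligner and callers, names and versions were not given in the sources used here. Deposited q-values (p-values adjusted for false discovery) list only positions under 0.05. The other column of the authors' footprint lists holds 1 constant, so footprints have no rank.

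The longer peak list of each library was used. A region was classed, in this order, as near a start (any base within 1000 bp of a GENCODE M21 transcript start), coding exon (midpoint in CDS), other exon, intron or intergenic, on 21 chromosomes. Each replicate 1 peak was paired with the replicate 2 peak of largest overlap. Footprints were counted by midpoint. GC, CpG and motifs were read from GRCm38.p6 in the central 150 bp. Log2 ratios were centred on the median of all shared peaks (−0.03 before centring). Interval and motif functions were tested on simulated data. Python 3.11.15, numpy 2.4.6, pandas 2.3.3, scipy 1.17.1 and pysam 0.24.0 were used.

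The regions, gene lists and motifs were chosen with earlier results of these data known. Named are the 10 strongest regions, the genes with the most regions, up to 3 regions per list, the 3 highest and lowest ratios and the 3 with most footprint bases; printed sequences are the strongest region per motif, plus the strongest of all, away from UTRs. Alternatives changed the start distance, the starts used, the list, the overlap, the base library, the coding rule, the window and the weights of intronic regions. A member that the naming rule picks is not reported here.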

Additional observations from a re-analysis of the deposited data

How the results depend on the processing

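The count of 890 regions became 574 with starts 2500 bp away, 424 on the stricter peak lists, 577 with a reciprocal overlap of 50%, and 1580 to 1858 in 1 library alone; it was 1328 with gene 5′ ends as the only starts, 942 from replicate 2 peaks and 842 with 50% of the peak in CDS. The share of peaks found again, 53.8% as a mean, was 34.9% with reciprocal overlap. The median centred ratio of the libraries kept its sign in all 8 alternatives, at −0.185 (2500 bp), −0.288 (gene 5′ ends), −0.174 (stricter lists), −0.180 (reciprocal overlap) and −0.155 (without exons over 1000 bp, an alternative chosen after seeing the data). The footprint difference of −5.27 points kept its sign in all 11, at −6.19 (gene 5′ ends), −2.05 (reciprocal overlap), −3.20 (replicate 2 peaks), −3.88 (introns weighted by signal) and −2.01 (without exons over 1000 bp). The GC difference of 6.00 points was 4.67 (2500 bp) and 5.33 (replicate 2 peaks). The footprint excess of coding over other bases, 3.84 points, was 5.50 (stricter lists), 4.76 (reciprocal overlap), 1.85 (replicate 2 peaks), 2.47 (50% in CDS), 1.85 (within 75 bp) and 5.30 (without exons over 1000 bp). The CTCF core difference of −4.58 points was −6.21 (stricter lists), −1.48 (GC weights) and −4.36 to −2.47 in 1 library alone; that of CAGCTG ran from 2.03 to 5.47. The log2 signal ratio of −0.13 was near 0 on the stricter lists (−0.017), with reciprocal overlap (−0.019) and without exons over 1000 bp (−0.034), −0.35 with GC weights, and −0.31 to 0.05 in 1 library alone. The causes were not tested. No paired analysis was possible because there is 1 group. Weak coding exon peaks were found in the other library less often than strong ones; the part of depth was not tested.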
